A study of Mus musculus with 48 samples.

Results

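Map2, Mapt, Tubb3, Dcx, Stmn2, Stmn3, Nefl, Nefm, Nefh and Gap43 encode cytoskeletal and growth cone proteins of neurons, and these 10 genes are described here out of 17711 with a symbol of their own on the array. They were found by symbol in the platform annotation, which gives them 26 of the 46632 probes. A probe was tested when it was detected (detection p under 0.01) on at least 6 of 48 arrays, which left 14 of the 26 probes, from 8 of the 10 genes, among 17815 tested probes from 9869 genes. The arrays, Illumina MouseWG-6 beadchips, measured RNA of dissociated cortical neurons of outbred CD-1 mice. Cultures aged 7 days were each given a compound or a control for 1 h, then NMDA in a hypotonic salt solution for 1 h, and then 16 h of recovery with the compound or control present again. NMDA opens the glutamate receptor named after it, and overexposure kills neurons. Every culture was exposed to NMDA, the controls included, so all differences are between exposed cultures.

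The groups follow the labels. The protective class held 4 compounds labelled NMDAR antagonist (MK-801, Ifenprodil, Riluzole and Memantine) and 10 protective compounds with other mechanism labels. Neither class took in 18 arrays of 16 compounds, labelled as not used in the class comparison. The non-protective class held 6 compounds together with 10 controls, 5 mock cultures given water and 5 vehicle cultures given DMSO. Compounds were labelled with water, DMSO or ethanol as solvent, and no control was given ethanol. Nimodipine, 4-PPBP and Clofibric acid, described below, were among the compounds in ethanol. Compounds had 1 array each, apart from 2 for Z-VAD-FMK and 2 for MitoPBN (the second is labelled MitoPBN2), and such repeats were averaged before testing. The labels used here state neither doses nor the assay behind the protection ratio. The labels do not say whether arrays came from separate cultures, so the p-values measure the spread between these arrays, which may be partly technical.

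Microtubules are built from tubulins, of which beta-III tubulin (Tubb3) is the form typical of neurons, and are bundled in dendrites by Map2, in axons by tau (Mapt), and in migrating and growing young neurons by doublecortin (Dcx). Stathmins bind free tubulin dimers and favour microtubule turnover; Stmn2 (SCG10) and Stmn3 (SCLIP) are neuronal members of that family. The neurofilament chains Nefl, Nefm and Nefh form the filaments that set axon calibre, and Gap43 is a membrane protein of growth cones that is made while axons extend or regrow.

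Signal was quantile normalized and is given as log2 intensity. Across arrays the median deposited signal was 36.1 to 124. Of 8 neuron markers (Snap25, Syt1, Syn1, Rbfox3, Elavl3, Elavl4, Eno2, Syp), 7 were detected on all 10 controls and all 4 antagonist arrays. Markers of astrocytes, oligodendrocyte precursors and microglia such as Slc1a3, Olig1 and C1qc were detected there too, so RNA of glia was present besides that of neurons. Fewer neurons and less of a transcript per neuron cannot be told apart in RNA of a whole culture. One control stood apart: vehicle control 1 exceeded the control mean by 0.84 log2 units on average over the 8 genes, while the other 9 controls lay between -0.29 and 0.12. The summed intensity of the 8 neuron markers was also high on that array, at 8570, against 2260 to 4040 on the other 9 controls. Calls against controls, and counts above the highest control, are given with and without that array where its removal changes them. All 10 controls sat at positions 1 and 2 of their 6-array chips, and no compound sat at position 1.

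The number of probes differed between the genes. Map2 had 10 probes, of which 4 were tested and 6 were detected on 0 of 48 arrays. Mapt had 3 (2 tested), Dcx 4 (2 tested), and both probes of Stmn2 were tested. Tubb3, Stmn3 and Gap43 had 1 probe each, detected on all 48 arrays. The single probes of Nefl and Nefh were detected on 0 of 48 arrays and give no level. Of the 2 probes of Nefm, one was tested, detected on 26 arrays. Where a gene had several tested probes, the brightest stands for the gene below.

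Promoter windows of 4 of the 10 genes were at hand, and they are shown because these genes moved together in the comparison that follows. Each window runs from 250 bases before to 50 bases after a RefSeq transcription start (build GRCm38.p6), on the strand of the gene. Capitals mark GGGCGG, the core of the GC box that Sp1-type factors recognise, searched on both strands. The motif CCAAT was searched in the same way, as were the TATA motif TATAAA and the E-box CANNTG, each on its own, so that matches of different motifs may overlap.
Map2, chr1:66175079-66175378, plus strand: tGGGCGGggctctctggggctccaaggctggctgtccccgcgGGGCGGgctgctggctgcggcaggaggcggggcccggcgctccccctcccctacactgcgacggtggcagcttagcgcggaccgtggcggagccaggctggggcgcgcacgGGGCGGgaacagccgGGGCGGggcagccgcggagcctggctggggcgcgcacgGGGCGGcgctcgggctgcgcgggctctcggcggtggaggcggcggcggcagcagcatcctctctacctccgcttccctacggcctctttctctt
Tubb3, chr8:123411303-123411602, plus strand: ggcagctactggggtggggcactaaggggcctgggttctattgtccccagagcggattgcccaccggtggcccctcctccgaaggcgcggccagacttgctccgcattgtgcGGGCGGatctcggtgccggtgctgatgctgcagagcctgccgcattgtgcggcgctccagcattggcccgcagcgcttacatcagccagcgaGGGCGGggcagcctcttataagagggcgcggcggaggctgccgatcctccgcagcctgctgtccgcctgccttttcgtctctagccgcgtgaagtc
Stmn3, chr2:181314451-181314750, minus strand: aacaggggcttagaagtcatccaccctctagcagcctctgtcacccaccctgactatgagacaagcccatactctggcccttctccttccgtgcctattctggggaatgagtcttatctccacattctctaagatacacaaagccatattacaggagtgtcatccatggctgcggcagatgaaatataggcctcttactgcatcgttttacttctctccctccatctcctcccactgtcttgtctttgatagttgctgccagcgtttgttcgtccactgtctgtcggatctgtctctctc
Dcx, chrX:143933170-143933469, minus strand, the more upstream of 2 annotated starts: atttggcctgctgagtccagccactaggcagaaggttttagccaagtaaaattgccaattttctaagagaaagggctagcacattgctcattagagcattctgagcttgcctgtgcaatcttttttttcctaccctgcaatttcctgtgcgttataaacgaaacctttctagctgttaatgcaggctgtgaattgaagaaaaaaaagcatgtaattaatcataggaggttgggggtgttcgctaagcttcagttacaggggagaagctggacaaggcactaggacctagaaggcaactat

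The Map2 window held 5 copies of GGGCGG and the Tubb3 window 2, while the Stmn3 and Dcx windows held 0. Of 32851 mouse windows of the same length, 35.7% held it. TATAAA lay in the Dcx window (13.6% of all windows), CCAAT in the windows of Tubb3 and Dcx (37.4%), and CANNTG in that of Stmn3 (72.3%). GC content was 77.7% for Map2, 67.3% for Tubb3, 49.7% for Stmn3 and 43% for Dcx, with a median of 52.7% over all windows. These matches describe letters in the windows and no binding was measured.

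All 8 measured genes were more abundant in cultures given an NMDAR antagonist than in controls. The stathmin Stmn2 rose most (3.64-fold), followed by Gap43 (2.95-fold), Mapt (2.73-fold) and Stmn3 (2.17-fold), and Nefm, Tubb3, Map2 and Dcx rose 1.79-fold, 1.77-fold, 1.55-fold and 1.51-fold. The limma fit over all groups called 8 of 8 genes higher at an adjusted p under 0.05. In the same fit 11.3% of the 9869 genes were called higher and 7.27% lower (16.1% of the 17815 probes were called in either direction). The median log2 difference of the 8 genes was 0.98, against -0.05 for all genes. Only Mapt and Stmn2 passed in all 19 alternatives to this fit. When arrays were scaled to a common median, or when chip position was a term in the fit, those 2 of 8 passed, as the closing section details.

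**Figure D1:**
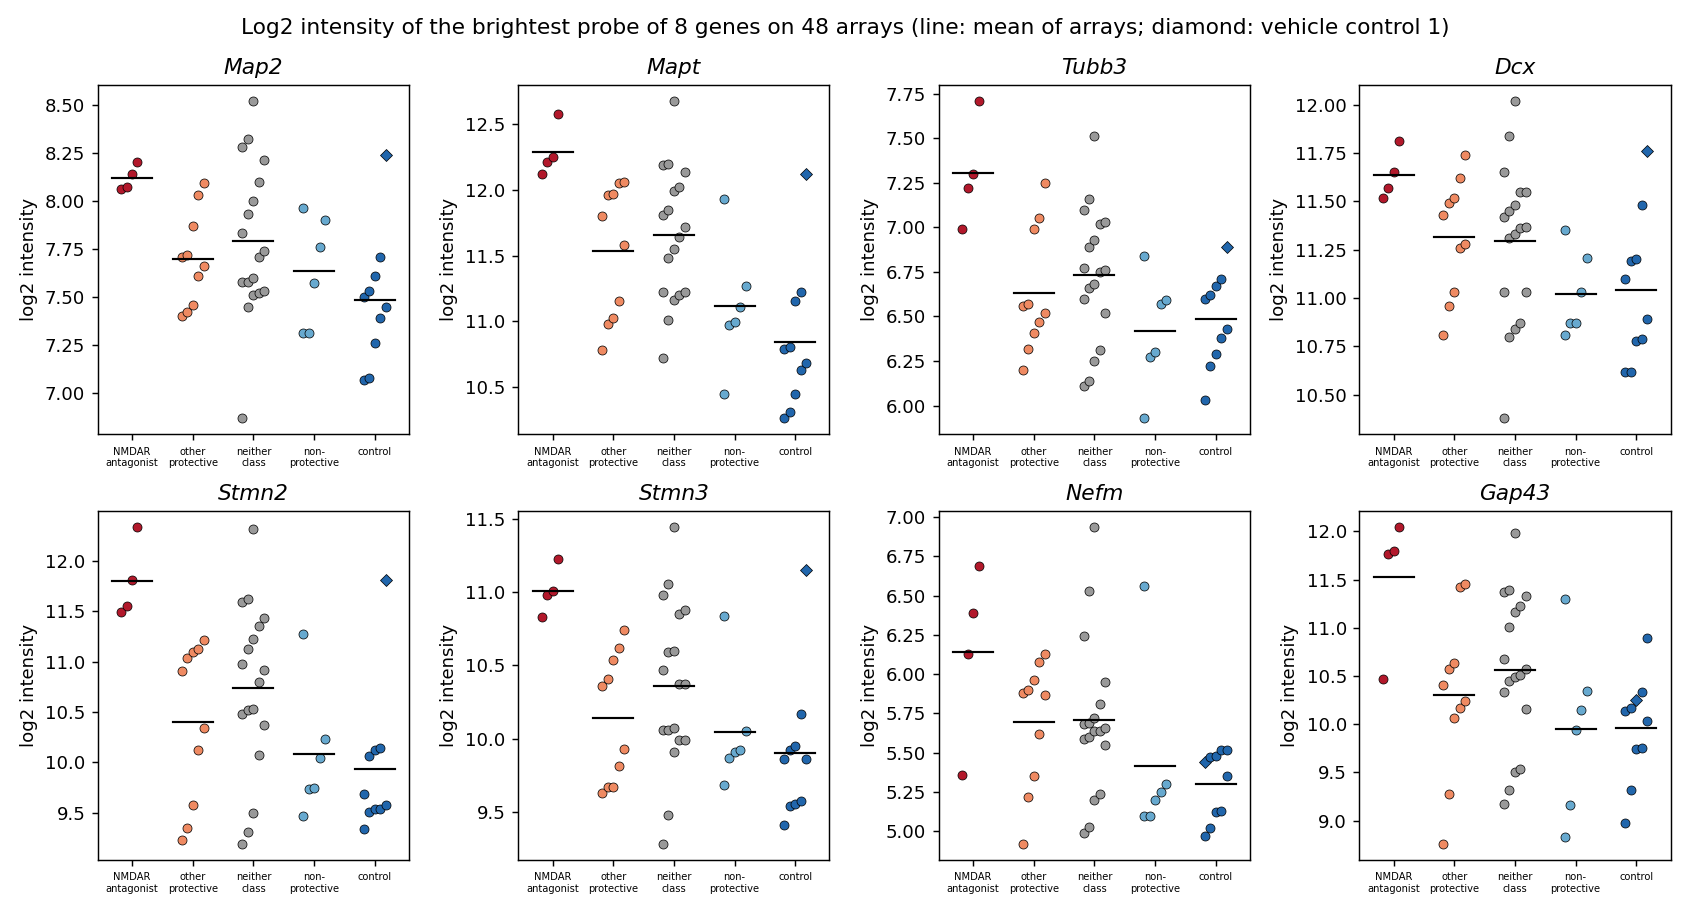
Log2 intensity of the brightest probe of each of 8 genes (vertical axes) on 48 arrays, by group from NMDAR antagonists at the left to the 10 controls at the right; each point is an array, each line a group mean, and the diamond is vehicle control 1. Antagonist means are the highest of the 5 groups for every gene, and vehicle control 1 is the highest control for Map2, Mapt, Tubb3, Dcx, Stmn2 and Stmn3.

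Among the microtubule genes, tau transcript moved furthest. Mapt was at 12.58 on the MK-801 array, 12.25 with Ifenprodil, 12.21 with Memantine and 12.12 with Riluzole, against 10.26 (lowest), 10.73 (median) and 12.12 (highest) on the 10 controls. Apart from vehicle control 1, which was as high as Riluzole, no control exceeded 11.22, so the groups overlap through that array alone. The log2 difference was 1.45 (SE 0.288, adjusted p = 0.00074; means 12.29 ± 0.20 SD, n = 4, against 10.84 ± 0.551 SD, n = 10), with 4 of 4 antagonists above the control mean. The second Mapt probe, which followed the first across the 48 arrays (r = 0.93, a description), gave 1.33 (SE 0.257, adjusted p = 0.000612).

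Tubb3 was at 7.71 with MK-801, 7.30 with Riluzole, 7.22 with Ifenprodil and 6.99 with Memantine, against a control range of 6.03 to 6.89 with a median of 6.52. It was the only one of the 8 genes with all 4 antagonists above the highest of 10 controls, a separation that 4.74% of all genes had. The log2 difference was 0.82 (SE 0.198, adjusted p = 0.00372). Without vehicle control 1, an omission chosen after its values were seen, all 4 antagonists exceeded every remaining control for 6 of the 8 genes, all but Nefm and Gap43, and 11.2% of all genes were separated in this way.

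Map2, the marker of dendrites, was at 8.20 with MK-801, 8.14 with Ifenprodil, 8.07 with Riluzole and 8.06 with Memantine, a narrow band. Controls ran from 7.07 over a median of 7.47 to 8.24, the last being vehicle control 1, which exceeded all 4 antagonists. The difference was 0.64 log2 units (SE 0.192, adjusted p = 0.0192). The 3 other tested Map2 probes differed by 0.54, 0.63 and 0.68 and did not pass (adjusted p = 0.0625, 0.0654 and 0.264 by limma). Of these, 1 tracked the brightest probe closely over the arrays (r = 0.96) and the other 2 less so (r = 0.49 and 0.34), so the Map2 probes do not all report the same pattern.

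Dcx changed least of the 8. Its values were 11.81 with MK-801, 11.65 with Ifenprodil, 11.57 with Memantine and 11.52 with Riluzole, against 10.62 (lowest), 10.99 (median) and 11.76 (highest) in controls. Only MK-801 exceeded vehicle control 1, the highest control. The log2 difference was 0.60 (SE 0.205, adjusted p = 0.0396), and 0.62 by the second Dcx probe (adjusted p = 0.0377). Dcx passed in 9 of 19 alternatives, the fewest of the 8 genes.

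Of the 2 stathmins, Stmn2 had the largest difference. It reached 12.34 with MK-801, 11.81 with Ifenprodil, 11.55 with Memantine and 11.49 with Riluzole, against a control range of 9.34 to 11.81 around a median of 9.63. The 9 controls other than vehicle control 1 did not exceed 10.14, so the antagonists stood more than 1 log2 unit above them. The difference was 1.87 (SE 0.421, adjusted p = 0.00214; means 11.80 ± 0.39 SD, n = 4, against 9.93 ± 0.72 SD, n = 10). Without vehicle control 1 it was 2.07. The dimmer Stmn2 probe, detected on 33 of 48 arrays, differed by 0.41 (adjusted p = 0.171) and did not pass.

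Stmn3 was at 11.23 with MK-801, 11.01 with Riluzole, 10.98 with Ifenprodil and 10.83 with Memantine, against 9.41, 9.86 and 11.15 as lowest, median and highest control. Again only MK-801 lay above vehicle control 1, and all 4 lay above the next control at 10.17. The log2 difference was 1.12 (SE 0.28, adjusted p = 0.00506). Over the 48 arrays Stmn3 and Stmn2 were correlated at r = 0.94, the highest of the 28 gene pairs.

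Nefm, the middle neurofilament chain, was near the limit of detection. Its tested probe was at 6.69 with Ifenprodil, 6.39 with MK-801, 6.13 with Riluzole and 5.36 with Memantine, where it was not detected. Controls ran from 4.97 to 5.52 with a median of 5.40, and 4 of the 10 were detected. The antagonists other than Memantine lay above every control, and Memantine lay among them. The difference was 0.84 log2 units (SE 0.244, adjusted p = 0.0147), and without Ifenprodil it was 0.66 (adjusted p = 0.127). Among the 34 compound arrays other than antagonists, Nefm exceeded the highest control on 22, a count that 0.902% of all genes matched or exceeded (the median gene did so on 3), in a comparison made after the values were seen. Its probe was detected on 16 of those 22 arrays, so the rest are ranks of signal at background. Vehicle control 1, at 5.44, was not the highest control for Nefm.

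Gap43, the growth cone protein, was at 12.05 with MK-801, 11.80 with Ifenprodil, 11.77 with Riluzole and 10.47 with Memantine, against 8.98 (lowest), 10.08 (median) and 10.89 (highest) in controls. Memantine lay within the control range and the other 3 above it. The log2 difference was 1.56 (SE 0.428, adjusted p = 0.00988). Vehicle control 1, high for 6 other genes, was at 10.25 for Gap43, close to the control median. Gap43 exceeded all 10 controls on 13 of 38 compound arrays, a count that 9.96% of all genes reached. Vehicle control 1 sets this count for several other genes: with it Stmn2 exceeded all controls on 2 arrays (a count that 70% of all genes reached), and without it on 26 (2.60% of all genes). Without that array Mapt exceeded the controls on 24, Map2 on 21, Stmn3 on 20, Tubb3 on 18, and Gap43 and Dcx on 13 each, where the median gene did so on 4.

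Antagonists and controls could also be compared on the chips that held both. On all 3 such chips each of the 8 genes was higher with the antagonist, by 1.49 to 2.24 for Stmn2, 0.99 to 1.55 for Mapt, 0.91 to 1.77 for Gap43 and 0.66 to 1.58 for Stmn3. The smallest of these values were 0.01 for Nefm and 0.09 for Dcx, both with Memantine on chip 7. How many of all genes were higher on all 3 chips is not given here, so the count of 8 genes has no background. These chips, 3, 4 and 7, held 1 control each. All compounds of a chip together, antagonists included, exceeded that control by 0.93, 1.18 and 0.82 for Stmn2 and 0.64, 0.78 and 0.54 for Mapt. Compounds together were above the controls of their chip on 6 or 7 of 8 chips, depending on the gene, so such a difference was not particular to antagonists. Between 15.3% (Tubb3) and 36.7% (Map2) of the variance over the 48 arrays lay between chips. Position could not be separated from control status at position 1. Compounds other than antagonists lay on average 0.39, 0.21, 0.35, 0.42 and 0.55 log2 units above the control mean at positions 2 to 6, over the 8 genes. Position 2 held 6 compounds, on chips 3 to 8, and 2 vehicle controls, on chips 1 and 2, so none of them shared a chip. The compounds' means over the 8 genes ran from -0.14 to 0.92 there, against -0.22 and -0.21 for those controls, and position and chip cannot be told apart in this.

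The 10 protective compounds with other mechanisms gave smaller differences, and none of the 8 genes passed against the same 10 controls. By the brightest probes all 8 differences were positive, with a median of 0.31 log2 units (0.00 for all genes). The largest was that of Mapt at 0.70 (SE 0.218, adjusted p = 0.138; unadjusted p = 0.00255), with values of 10.78 to 12.06 around a median of 11.69. Nefm at 0.39 was the other gene with an unadjusted p under 0.05 by its brightest probe, where 15.7% of all genes were. Dimmer Map2 probes had larger differences than the brightest, at 0.85 and 0.46 (unadjusted p = 0.0079 and 0.0152 by limma). They did not pass either (adjusted p = 0.198 and 0.234). By limma 0.334% of the 9869 genes were called in this comparison, 33 in number, so a count of 0 in 8 is near the background. Without vehicle control 1, Mapt passed (0.84, adjusted p = 0.0326), in a fit whose share of all genes called is not given here.

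**Figure D2:**
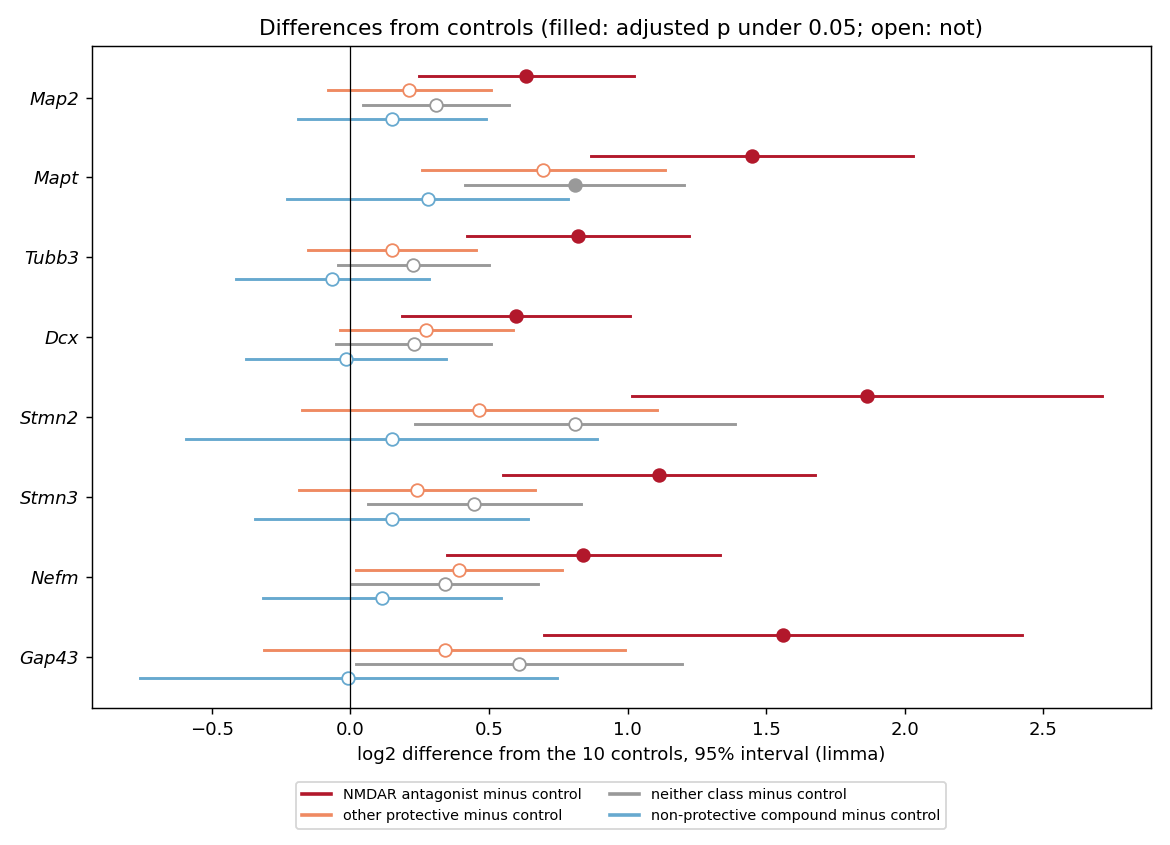
Log2 difference from the 10 controls for 8 genes (rows) in 4 groups of compounds (colours, NMDAR antagonists uppermost), with 95% intervals from limma; filled points passed an adjusted p of 0.05. All 8 antagonist intervals lie above 0, and among the other groups only Mapt in the compounds of neither class is filled.

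Between antagonists and the other protective compounds, all 8 differences were positive by the brightest probes (median 0.71), and 0 of 8 passed (adjusted p = 0.0526 for Tubb3 to 0.469 for Dcx). The dimmer Map2 probes differed by 0.36, 0.17 and -0.17 (adjusted p = 0.393, 0.812 and 0.9 by limma), against 0.42 for the brightest. In that comparison 3.27% of genes were called, and 6 of the 8 genes had an unadjusted p under 0.05, against 18.4% of all genes. Stmn2 differed by 1.40 (95% interval 0.55 to 2.25, adjusted p = 0.0586) and Stmn3 by 0.87 (95% interval 0.31 to 1.44, adjusted p = 0.0771). Up to 3 genes passed when chip or solvent was a term in the fit. The antagonists are thus not shown to differ from the other protective compounds in these genes, nor shown to be alike.

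In compounds of neither class Mapt rose by 0.81 log2 units (SE 0.196, adjusted p = 0.0103), with 10.72, 11.68 and 12.68 as lowest, median and highest of 18 arrays. By its brightest probe it was the 1 gene of 8 that passed, where 8.22% of all genes did, and with median scaling or with position in the fit 0 of 8 passed. Among the dimmer Map2 probes 2 passed as well (0.90, adjusted p = 0.0378, and 0.53, adjusted p = 0.0396). The other 7 differences were positive as well (0.23 to 0.81), the largest being that of Stmn2 (0.81, adjusted p = 0.069). Without vehicle control 1, Mapt, Map2, Stmn2 and Stmn3 passed, in a fit whose share of all genes called is not given here. For the 6 non-protective compounds the differences ran from -0.07 (Tubb3) to 0.28 (Mapt), 5 of 8 were positive, and 0 of 8 passed, where 0% of genes and 0.0168% of probes did. The Map2 probes disagreed here too: the brightest differed by 0.15, and 2 of the other 3 by 0.75 and 0.59 (adjusted p = 0.813 and 0.698), which is close to their differences with antagonists (0.68 and 0.63). The intervals remained wide, for Stmn2 from -0.59 to 0.89.

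For the class label itself, which sets the 14 protective arrays against 16 arrays of non-protective compounds and controls, 3 of 8 genes rose. These were Mapt (0.81, adjusted p = 0.0226), Nefm (0.48, adjusted p = 0.0475) and Dcx (0.37, adjusted p = 0.0407), where 5.54% of all genes were called higher and 2.96% lower. By limma the second Mapt probe passed too (0.65, adjusted p = 0.033), and the second Dcx probe did not (0.295, adjusted p = 0.134). All 8 differences were positive, with a median of 0.46 and an unadjusted p under 0.05 for each, where 30% of all genes had one. With chip or position as a term, or with median scaling, 0 of 8 passed, and median scaling turned the calls over all probes to 6 higher and 763 lower. Without the 4 antagonists, and also without the 10 controls, 0 of 8 passed. Leaving out vehicle control 1 raised the count to 7 of 8, all but Gap43. The share of all genes called in that fit is not given here.

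**Figure D3:**
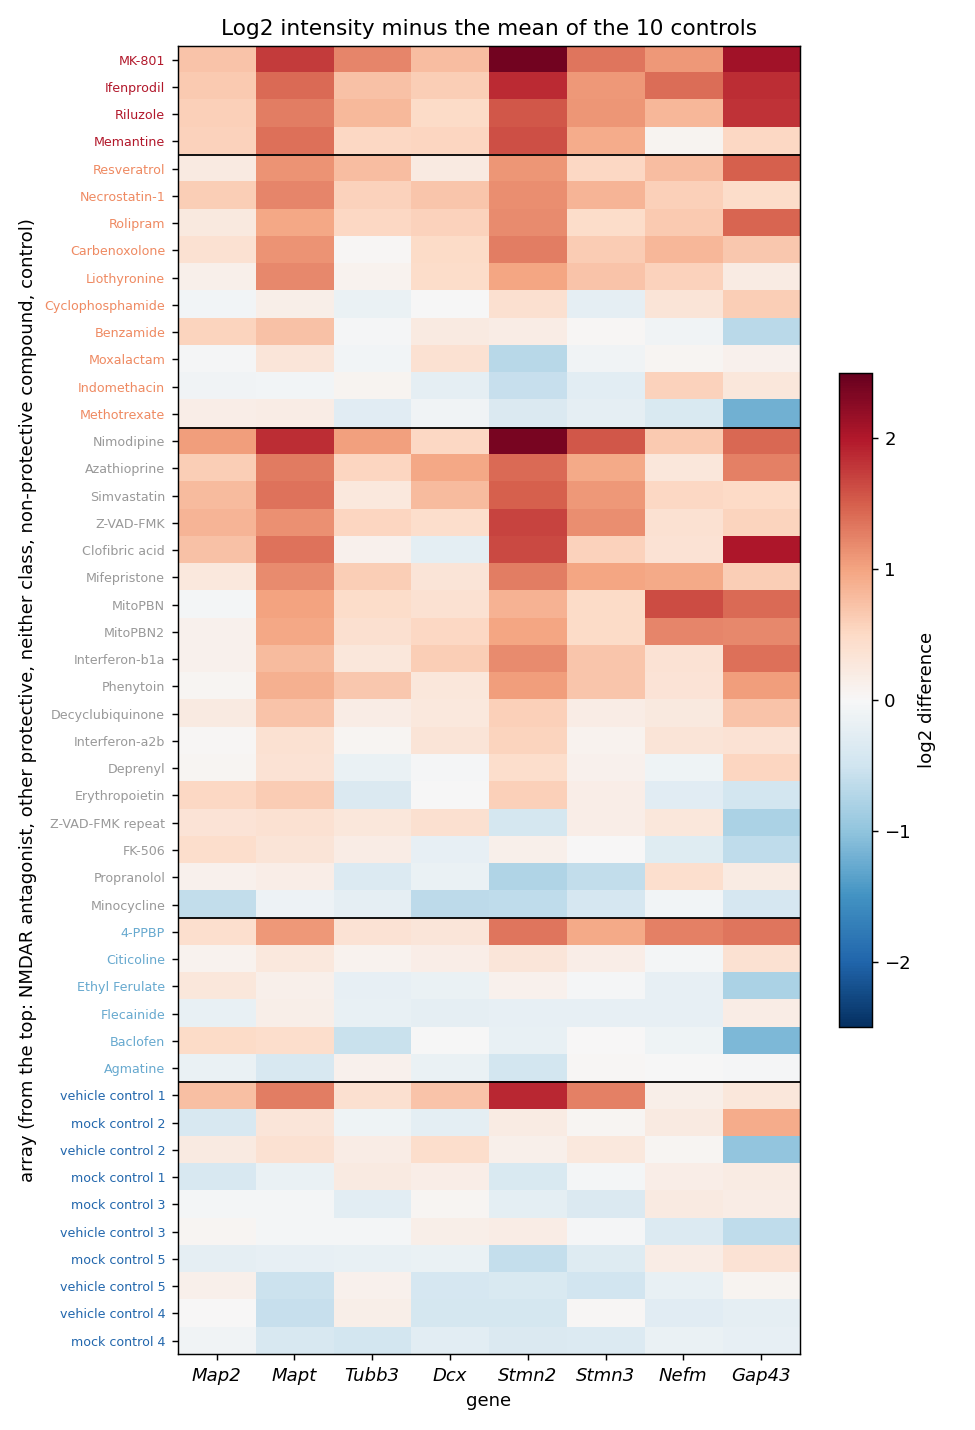
Log2 intensity minus the mean of the 10 controls (colour, red above and blue below) for 8 genes (columns) on 48 arrays (rows, grouped from NMDAR antagonists at the top to controls at the bottom and ordered within a group by the mean over the genes). All 8 genes lie above the control mean on 20 of the 38 compound arrays: the 4 antagonists, 5 other protective compounds, 10 arrays of neither class and 4-PPBP of the non-protective class. Vehicle control 1 is red in all 8 as well.

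Single compounds have 1 array and no test. The mean over the 8 genes was highest above the control mean for MK-801 (1.42 log2 units), then for Nimodipine (1.30), Ifenprodil (1.20) and Riluzole (1.06). Memantine came at rank 15 of 48 with 0.76, below vehicle control 1, and among the other protective compounds Resveratrol (0.78), Necrostatin-1 (0.77) and Rolipram (0.76) were level with it. MK-801 and Nimodipine each exceeded the highest control for 7 of 8 genes, where 18.6% and 27.1% of all genes did so on those arrays. Without vehicle control 1 both exceeded the controls for 8 of 8, as did Ifenprodil, Riluzole, Azathioprine and Rolipram (15.6% to 29.8% of all genes on these 6 arrays). Nimodipine, a blocker of L-type calcium channels whose label is ion channel blocker, belonged to neither class. Its Stmn2 value of 12.32 was close to the 12.34 of MK-801, and its Map2 (8.52), Mapt (12.68) and Stmn3 (11.45) values were the highest of the 48 arrays. Its neuron marker sum (14500) was also the highest, and its sums of astrocyte markers (16900) and of glial and contractile cytoskeleton genes (20300) the lowest of the 48; their part in these values was not tested. Dcx was the gene for which Nimodipine stayed within the controls (11.55).

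Some arrays went with their class less well, and Clofibric acid and Minocycline, which belonged to neither class, stood out in other ways. 4-PPBP, a sigma receptor ligand of the non-protective class with a protection ratio of 0.89, had a mean of 0.88, at rank 6. It was above the highest control for Nefm (6.56) and Gap43 (11.30), where 15.3% of all genes were, and without vehicle control 1 for 7 of 8 genes (20.3% of all genes). The other 5 non-protective compounds had means of -0.14 to 0.17. Its summed neuron markers were 13800, near the 14200 of MK-801. Clofibric acid combined one of the highest Gap43 values (11.98) with a Dcx value of 10.80, below the control mean. That array stood apart: its median correlation with the other arrays was the lowest (0.955), as were its sums of microglia (624) and oligodendrocyte lineage markers (2600), and 32.1% of all genes lay below the lowest control on it. Methotrexate, a protective compound by label with a ratio of 1.61, had a mean of -0.27 and lay below the lowest control for Nefm and Gap43. Minocycline had the lowest mean of all arrays (-0.39) and was below every control for Map2, Stmn2 and Dcx, with ratio 1.20. The share of all genes below the lowest control on those 2 arrays was 7.49% for Methotrexate and 16.6% for Minocycline.

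Over the 36 compounds, no gene's level followed the labelled protection ratio past the threshold. Slopes per doubling of the ratio were 0.19 (Map2) to 0.52 (Stmn2) log2 units, all 8 positive, with adjusted p = 0.847 to 0.871, and 0% of genes were called. Mapt (0.48) and Dcx (0.31) had an unadjusted p under 0.05, where 6.20% of all genes did. Rolipram, with the highest ratio (2.76), had a mean of 0.76, and Benzamide, next at 2.01, a mean of 0.12. By mechanism label the median of the array means was 1.13 for NMDAR antagonists, 0.73 for free radical scavengers (3 arrays) and 0.63 for ion channel blockers (3). It was 0.44 for enzyme inhibitors (10), 0.39 for anti-apoptotic compounds (3), 0.26 for immunomodulators (5) and -0.12 for receptor agonists (5). Repeat arrays count separately in these medians. The scavenger arrays were MitoPBN and its repeat (0.77 and 0.73) and Citicoline (0.17), and the enzyme inhibitors include both Z-VAD-FMK arrays. A moderated F test over the 6 mechanism labels with 3 or more compounds called 0 of 8 genes (adjusted p = 1 for each), and 0% of all genes. Its smallest unadjusted p were 0.0546 (Tubb3) and 0.0592 (Stmn2).

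**Figure D4:**
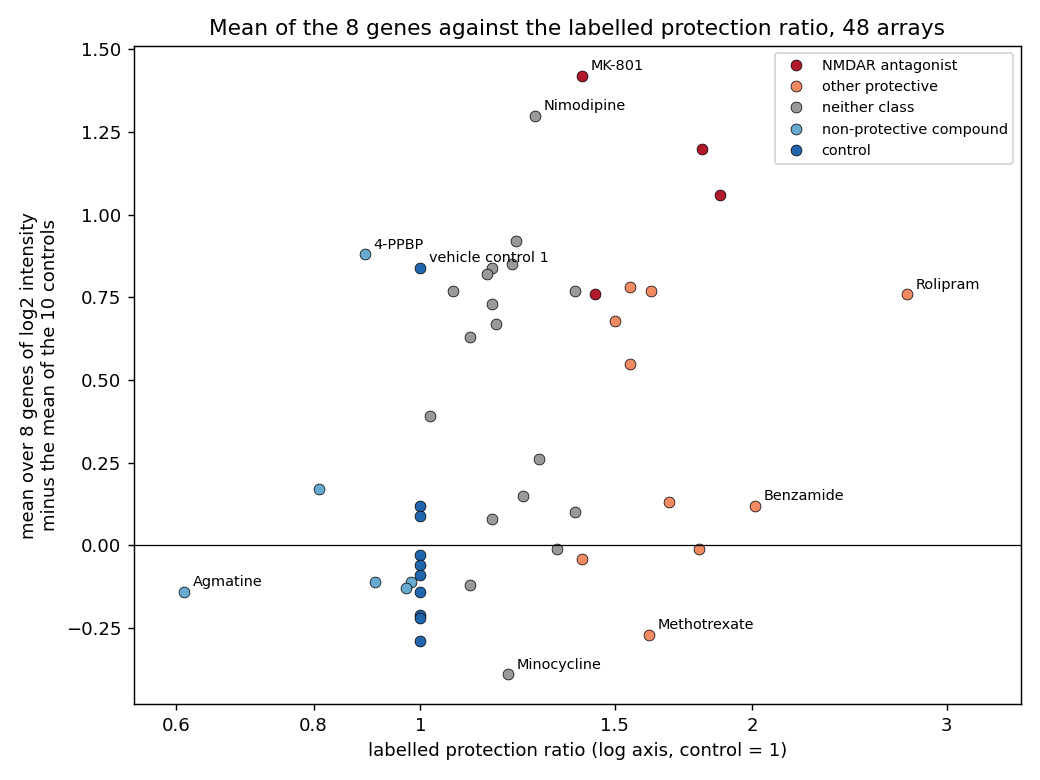
Mean over 8 genes of log2 intensity minus the mean of the 10 controls (vertical axis) against the labelled protection ratio (horizontal log axis, control at 1) for 48 arrays, coloured by group. MK-801 and Nimodipine are highest at ratios of 1.40 and 1.27, while Methotrexate lies below 0 at 1.61.

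The vehicle and mock controls did not differ past the threshold in any of the 8 genes (0 of 8 by limma, and 0% of all genes). At an unadjusted p under 0.05, 19.6% of all genes and 3 of the 8 did: the vehicle minus mock difference was 0.47 for Map2, 0.32 for Tubb3 and -0.59 for Gap43 (adjusted p = 0.183, 0.234 and 0.233). Gap43 was at 10.25, 8.98, 9.32, 9.74 and 10.03 in vehicle controls 1 to 5, against 10.17, 10.89, 10.14, 9.75 and 10.33 in mock controls 1 to 5. The groups overlapped, with 3 vehicle controls below the lowest mock control. With the 5 vehicle controls alone as the comparison, 4 of 8 genes were called higher with antagonists (Mapt, Stmn2, Nefm and Gap43), and with the 5 mock controls alone 6 of 8 (all but Nefm and Gap43), both chosen after the data were seen. The share of all genes called in either fit is not given here.

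Related genes were taken from lists drawn up with earlier results known, and their counts stand against the 11.3% of all genes called higher and 7.27% called lower with antagonists. Of 15 measured microtubule genes 5 were called higher and 0 lower (median 0.55): Map6, which stabilises microtubules against cold (1.98, adjusted p = 0.000298), Dclk1, a doublecortin-like kinase (1.57), Stmn4 (1.23), Tubb4a (1.10) and Map1b (1.02). The other 10 did not pass, among them the alpha-tubulin genes Tuba1a (0.31, adjusted p = 0.618) and Tuba1b (-0.03, adjusted p = 0.901). Of 9 axonal motor genes 6 were called higher (median 0.82), among them the kinesins Kif3c (0.91) and Kif5c (1.10) and the dynein chain Dync1i1 (1.27). Kif5a was among them too, at 0.82, although it was detected on 1 of 10 controls.

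Other filament and membrane skeleton genes had 5 of 6 measured called higher (median 1.08), including alpha-internexin (Ina, 1.37), which copolymerises with neurofilaments, dematin (Dmtn, 2.37) and the ankyrins Ank2 (0.78) and Ank3 (1.35). Growth cone and guidance genes had 13 of 18 called higher and 0 lower (median 0.60), led by the adhesion molecule Chl1 (2.47, adjusted p = 0.000188), the collapsin response mediators Dpysl5 (1.21) and Crmp1 (1.51), and the receptor Robo1 (1.57). Kinases, phosphatases and proteases that act on tau or filaments had 8 of 13 higher and 1 lower (median 0.70). Camk2b (1.94), Cdk5r1 (0.99), the activator of Cdk5, Gsk3b (0.56) and Ppp3ca (0.81) rose, and calpastatin (Cast), the inhibitor of calpains, fell by 0.71 on the log2 scale, although it was detected on 1 of 4 antagonist arrays and so lies near background there.

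A list on axon injury held genes induced after injury and genes of axon survival and degeneration. Of its 9 measured genes 1 was called higher, a share near that of all genes, and the median was 0.02. That gene was Nmnat2 (0.82, adjusted p = 0.00207), an axon survival enzyme and not an injury-induced gene. The injury-induced genes Jun (-0.34, adjusted p = 0.174), Sox11 (0.41, adjusted p = 0.117), Atf3 (-0.24, adjusted p = 0.596) and Gadd45a (-0.49, adjusted p = 0.253) did not pass. Of 17 measured cytoskeleton genes of glia, progenitors and contractile cells, 0 were called higher and 7 lower (median -0.76). The lamin Lmna fell by 0.77, the calponins Cnn2 and Cnn3 by 1.30 and 0.40, and the tropomyosin Tpm4 by 0.74, while the glial filament gene Gfap differed by 0.16 (adjusted p = 0.72). Against the other protective compounds, none of these 17 passed.

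**Figure D5:**
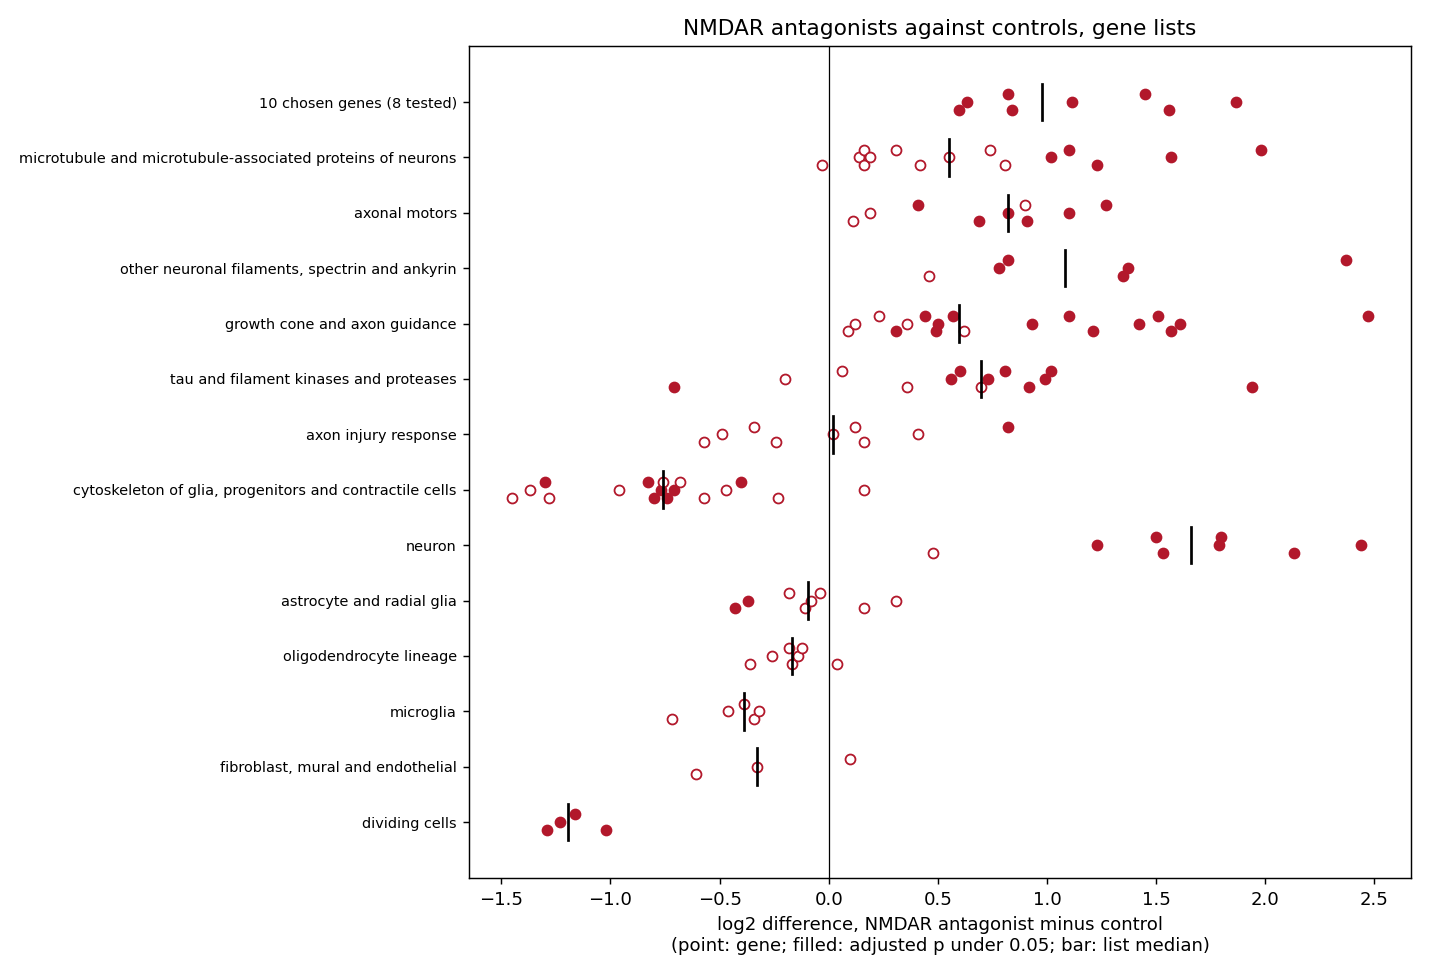
Log2 difference of NMDAR antagonists minus controls (horizontal axis) for each measured gene of the lists (rows), with filled points for an adjusted p under 0.05 and a bar at the list median. The 8 chosen genes, the neuron markers and the neuronal filament genes lie to the right of 0, and the dividing cell markers and the cytoskeleton of glia and contractile cells lie mostly to the left.

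Markers of cell types moved in the same comparison. Of 8 neuron markers 7 were called higher (median 1.66), and their summed intensity was 9370 to 14200 with antagonists, against 2260 to 8570 in controls. Of 4 measured markers of dividing cells all 4 were called lower (median -1.19), with sums of 864 to 2150 against 1430 to 3600. Mki67 and Ccnb1 had no annotated probe. Astrocyte and radial glia markers had 2 of 8 called lower (Slc1a3 fell by 0.43 and Gja1 by 0.37), with sums of 18800 to 24700 against 22300 to 30800, and Aldh1l1 had no annotated probe. Oligodendrocyte lineage markers had 0 of 7 called (sums of 9130 to 12700 against 9450 to 15100), and Mog was detected on 3 of 48 arrays. Microglia markers had 0 of 5 called (sums of 3180 to 4910 against 2420 to 8590), and Itgam was detected on 0 of 48 arrays. Fibroblast, mural and endothelial markers had 0 of 3 called (sums of 108 to 250 against 84.5 to 491), and Col1a2, Col3a1, Lum, Pecam1 and Cldn5 were detected on 0 of 48 arrays. Their part in the differences of the 8 genes was not tested.

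The 8 genes varied together over the arrays to different degrees. Pairwise correlations over 48 arrays, which share chips, controls and compounds and are given as a description, ran from 0.25 (Map2 with Nefm) to 0.94 (Stmn2 with Stmn3), with a median of 0.70. On the 44 arrays without antagonists the median was 0.635 (range 0.14 to 0.93), and on the 10 controls alone 0.52 (range -0.34, Map2 with Gap43, to 0.93). Mapt, Stmn2 and Stmn3 formed the tightest trio (0.91 to 0.94). Gap43 went with Nefm (0.75), Stmn2 (0.71), Tubb3 (0.69), Mapt (0.64) and Stmn3 (0.61) more than with Map2 (0.27) or Dcx (0.45). Outside the 8 genes, those most like their mean were Acot7 and Gpr85 (r = 0.97 each), then Sult4a1, Jph4 and Camkv (r = 0.963 each). Camkv (0.973) and Rab6b (0.961) were most like Stmn2, Ydjc (0.952) and Nsg1 (0.948) most like Gap43, and Gng4 (0.886) and Sybu (0.885) most like Dcx. Nefl, for which the same ranking was planned, gave no level to rank by.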

How the data were processed

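Expression was measured on 48 single-colour Illumina arrays. The deposited values are linear intensity averages over the beads of a probe, exported with BeadStudio per the submitters' processing notes (version and settings not given in the sources used here). Per the file headers a detection p-value follows each signal. The deposited series matrix holds the same intensity less 1 constant per array (32.3 to 111) and served as an alternative.

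Signals were background corrected from the detection p-values (limma nec, offset 16), then quantile normalized and log2 transformed. Tests were run on probes detected (p under 0.01) on at least 6 arrays. Differences were fitted with limma 3.58.1 (lmFit, eBayes) in R 4.3.3 over all groups at once (46 columns, the 2 repeat arrays averaged). The class label (30 arrays), the 10 controls, the slope on log2 protection ratio (36 compounds) and the F test over mechanisms (29 compounds) had fits of their own. P-values are two-sided and adjusted by Benjamini and Hochberg over the probes tested, threshold 0.05. Comparisons with controls share the same controls. Precision is limited by the number of arrays. Files were read with data.table (version 1.17.8), and figures drawn with matplotlib 3.10.9 in Python 3.11.15. The fit of NMDAR antagonists against controls was first checked on simulated arrays, and the other comparisons had no such check.

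Symbols come from the platform annotation (29976 probes with 1 symbol, 10 with several, 16646 with none). The brightest tested probe stands for a gene. All member probes are described; of other genes, the text names the 5 most correlated with the members' mean, the 2 most correlated with Stmn2, Gap43 and Dcx, and up to 4 of each list with the smallest p against controls. Further list members named were chosen after their values were seen. The members, lists and comparisons were chosen with earlier results of these data known. Promoters are RefSeq's, build GRCm38.p6; the genome build of the probes is not given in the sources used here. Alternatives covered normalization, background, filters, chip, position, solvent, probe choice, groups in the fit and single arrays left out.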

Additional observations from a re-analysis of the deposited data

Results flagged for a closer look

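In groups of 4 to 10 arrays, an array was singled out when its gap to the nearest other array took up an unusually large part of the group's range. This held for 5 of 40 gene and group combinations, where chance gives about 1 in 20. Vehicle control 1 was apart from the other vehicle controls for Map2 (8.24, next 7.71) and Stmn2 (11.81, next 10.12). 4-PPBP was apart from the other non-protective compounds for Nefm (6.56, next 5.30) and Stmn3 (10.84, next 10.05). For Nefm, mock control 4 lay below the other mock controls (5.13, next 5.47).

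The second Nefm probe, which no comparison used, was detected on 1 array, that of Ifenprodil, at 5.56, against at most 4.80 in controls.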

How the results depend on the processing

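Of the 8 genes called higher with antagonists against controls, Mapt (1.17 to 1.59) and Stmn2 (1.14 to 2.14) passed in 19 of 19 alternatives, and no gene changed direction there. The count was 2 with median scaling and with position as a covariate, 4 with vehicle controls alone and 4 to 8 with 1 antagonist or vehicle control 1 left out. It was 4 without Ifenprodil and 4 without MK-801, when Mapt, Tubb3, Stmn2 and Stmn3 passed, and 7 without Riluzole or Memantine. Median scaling over all probes moved the median of all probes to -0.27 and the split of calls to 370 higher and 75 lower, against 1743 and 1120. Relative to that shift the differences of the 8 genes stay positive. Median scaling over tested probes only, chosen after seeing the data, gave 7 of 8 (1589 higher and 965 lower). For the class, scaling over all probes gave 6 higher and 763 lower calls, and over tested probes 710 and 381, in place of 750 and 609. In that order the calls were 1 and 14, and 603 and 463, in place of 721 and 634 for neither class, 85 and 0, and 144 and 30, in place of 395 and 91 for antagonists against other protective, and 0 and 1, and 38 and 1, in place of 57 and 7 for other protective.

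In the other comparisons the counts of 8 moved as follows. Neither class against controls gave 0 with median scaling or position, 2 with the mean of a gene's probes and 4 without vehicle control 1. Antagonists against other protective compounds gave 1 without background correction or with the mean of a gene's probes, 3 with chip or solvent as a term, 2 with only those groups fitted, and 0 to 2 with 1 antagonist left out (2 without Memantine). The class gave 0 with median scaling, chip or position, 1 with no detection filter or with solvent, 0 without the 4 antagonists, 0 without the 10 controls and 7 without vehicle control 1. Other protective against controls gave 1 without vehicle control 1. Vehicle against mock controls gave 5 with chip as a block, which left 1 residual degree of freedom, and 2 with position. Apart from the scaling settings above, calls over all probes are not given for these alternatives, so their counts have no background beside them. The cause of these shifts was not tested.

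Some differences that had not passed changed sign. Tubb3 in other protective compounds was -0.056 with median scaling and -0.089 with position, and in neither class -0.016 with position. In non-protective compounds Tubb3 was 0.023, Gap43 0.031 and Dcx 0.02 with median scaling, Gap43 0.086 with chip as a block, Dcx 0.094 with the mean of its probes, and Gap43 0.025 and Dcx 0.063 without vehicle control 1. Vehicle minus mock was -0.37 for Mapt, -0.051 for Stmn3 and -0.42 for Dcx with chip as a block, and with 1 control left out -0.093 (without vehicle control 1) to 0.372 for Mapt. The slope was -0.053 for Map2 and -0.001 for Tubb3 with median scaling.

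Vehicle and mock controls share replicate numbers, but same-numbered controls correlated at -0.14 to 0.15 in their deviations, above 0.1 in 1 of 5 pairs, and 0 of 5 matched their own number best. With the number as a replicate block 0 of 8 passed, as without it. Solvent as a term could not be fitted for vehicle against mock, where it is the contrast itself. Signal near background limits Nefm, and 10 of 26 probes, among them those of Nefl and Nefh, were never detected.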

Other observations

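The repeat arrays show how far single arrays can differ. Between the arrays of Z-VAD-FMK, a caspase inhibitor, on chips 7 and 8, Stmn2 was 11.62 and 9.50, Gap43 10.51 and 9.17, Stmn3 11.06 and 10.06 and Mapt 11.99 and 11.22, while Dcx was 11.48 and 11.45. The Stmn2 gap of 2.12 exceeded the difference between antagonists and controls. Between the arrays labelled MitoPBN and MitoPBN2 no gene differed by more than 0.41 (Nefm, 6.94 and 6.53), and Stmn2 was 10.80 and 10.92.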
